A study of Homo sapiens with 33 samples.

Results

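The 40 genes described here encode the junctions of epithelial cells and the factors that keep epithelial identity. They were taken by symbol from a fixed list, which was chosen with earlier results of these data known. The list is therefore not blind to these data. All 40 were among the 29744 genes of the deposited tables. They comprise 9 regulators and 31 other genes. The regulators are the transcription factors GRHL1, GRHL2, GRHL3, OVOL1, OVOL2, EHF and ELF3 and the RNA splicing factors ESRP1 and ESRP2. The other genes encode adhesion molecules (CDH1, EPCAM), tight junction proteins (MARVELD2, MARVELD3, TJP3, CGN, LSR, OCLN, F11R), polarity proteins (CRB3, LLGL2), desmosome and cornified envelope proteins (PKP2, PKP3, DSP, JUP, DSC2, DSG2, PPL, EVPL), membrane proteases with their inhibitors (ST14, PRSS8, SPINT1, SPINT2), vesicle traffic proteins (RAB25, MAL2, AP1M2, MYO5B, MYO5C), and CDS1, BSPRY and GALNT3.

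The study sequenced mRNA from 11 cell lines of human high-grade serous ovarian carcinoma, in 33 libraries, 3 for each line. OVCAR3 and OVCAR4 are platinum-sensitive lines established from ascites, and from each the study selected an independent pair of resistant lines, ResA and ResB, by repeated short pulses of cisplatin at rising dose. PEA1 is sensitive and PEA2 resistant, and both come from 1 patient; PEO1 is sensitive and PEO4 and PEO6 are resistant, and these come from another patient. The resistant lines were not kept in cisplatin. The labels name the line but not its platinum response, so that the division into 4 sensitive and 7 resistant lines follows the study's text. Because the labels do not say that the 3 libraries came from separate cultures, p-values measure the spread between these libraries only. The libraries held 18058985 to 43394009 estimated counts, with a median of 30611448.

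Epithelial cells are held together by adherens junctions built on E-cadherin (CDH1), by desmosomes, which anchor keratin filaments, and by tight junctions, which seal the space between cells. Grainyhead-like factors and OVOL factors sustain this programme, partly by repressing ZEB1, a repressor that binds E-box motifs in the promoters of epithelial genes. High-grade serous carcinoma arises mostly from the fallopian tube epithelium and usually keeps E-cadherin and EPCAM. The lineage factor PAX8 was present in every line, at mean levels from 30.1 to 203 TPM. TPM is a level of transcripts per unit of gene length, scaled within each library. Of the markers of leukocytes, endothelium and fibroblasts, the highest line means were 3.30 TPM for PTPRC, 3.02 TPM for CD14, 7.02 TPM for CDH5, 6.76 TPM for PECAM1, 0.150 TPM for DCN, 6.55 TPM for PDGFRB, 17.7 TPM for LUM and 88.4 TPM for COL1A1. The COL1A1 and PDGFRB maxima fell in PEA1, and their part in the results for that line was not tested.

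The promoters were read for the E-box that ZEB and SNAI factors bind (CACCTG on either strand) and for a Grainyhead-like core (AACNNGTT). The RefSeq promoter table (GRCh38.p14) held 22 of the 40 genes. Of these, 13 (59.1%) carried the E-box within the 250 bases before the start, against 17.5% of the 27305 promoters in the table. At least 2 E-boxes were present in 5 (22.7%), against 2.55% of all promoters. The Grainyhead-like core was present in 1 promoter (CGN, 4.55%), against 2.97% of all. For 4 of the 22 genes (EHF, CGN, CRB3 and GALNT3) the start used by the promoter table lies inside the gene's RefSeq span, so the window read lies within the gene; of the 18 windows that lie before the gene, 11 (61.1%) held the E-box. A match gives the letters only and says nothing of occupancy. The sequences below are the 250 bases before the gene, 5′ to 3′ on its strand, with E-box letters in capitals. They were chosen after the matches were known, from the 18 windows: AP1M2 and MYO5B hold the most E-boxes, DSP and DSG2 hold 2 each, RAB25 has a single one, and SPINT1 has no match.
AP1M2 (chr19:10587313-10587562, reverse strand): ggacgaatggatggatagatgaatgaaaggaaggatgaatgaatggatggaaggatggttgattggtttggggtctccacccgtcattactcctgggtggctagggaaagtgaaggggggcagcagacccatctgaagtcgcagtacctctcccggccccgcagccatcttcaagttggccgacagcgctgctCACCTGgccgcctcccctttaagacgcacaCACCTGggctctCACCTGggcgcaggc
MYO5B (chr18:50195148-50195397, reverse strand): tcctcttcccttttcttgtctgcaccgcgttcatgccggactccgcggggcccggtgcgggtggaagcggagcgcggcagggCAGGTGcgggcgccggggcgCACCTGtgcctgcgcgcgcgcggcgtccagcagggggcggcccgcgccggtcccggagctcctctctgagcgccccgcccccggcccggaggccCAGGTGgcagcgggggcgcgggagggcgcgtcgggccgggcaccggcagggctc
DSP (chr6:7541421-7541670, forward strand): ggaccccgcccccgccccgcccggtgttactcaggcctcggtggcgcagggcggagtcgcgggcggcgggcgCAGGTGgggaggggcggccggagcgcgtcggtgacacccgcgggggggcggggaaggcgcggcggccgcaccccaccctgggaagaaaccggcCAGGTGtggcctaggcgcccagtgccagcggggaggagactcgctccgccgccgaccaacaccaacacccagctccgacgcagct
DSG2 (chr18:31497927-31498176, forward strand): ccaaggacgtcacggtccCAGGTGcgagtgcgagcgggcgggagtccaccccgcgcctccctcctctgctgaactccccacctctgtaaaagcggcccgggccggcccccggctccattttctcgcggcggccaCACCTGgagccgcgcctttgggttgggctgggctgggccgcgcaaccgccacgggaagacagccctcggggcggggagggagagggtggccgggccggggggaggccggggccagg
RAB25 (chr1:156060910-156061159, forward strand): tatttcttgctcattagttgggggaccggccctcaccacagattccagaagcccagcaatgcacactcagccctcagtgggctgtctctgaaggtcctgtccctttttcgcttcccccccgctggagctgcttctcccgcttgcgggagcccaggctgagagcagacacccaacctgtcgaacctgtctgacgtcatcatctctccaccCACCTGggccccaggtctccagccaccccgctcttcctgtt
SPINT1 (chr15:40843798-40844047, forward strand): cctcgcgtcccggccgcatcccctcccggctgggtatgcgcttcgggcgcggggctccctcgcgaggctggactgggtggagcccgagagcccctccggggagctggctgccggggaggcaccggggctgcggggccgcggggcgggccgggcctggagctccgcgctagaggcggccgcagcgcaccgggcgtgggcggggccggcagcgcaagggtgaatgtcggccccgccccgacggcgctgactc

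In AP1M2, an adaptor subunit for basolateral sorting, the 3 E-boxes start at -57, -27 and -15 relative to the gene's start. In MYO5B, a myosin motor of recycling endosomes, they start at -168, -148 and -54. In DSP and DSG2, a linker and a cadherin of the desmosome, they start at -178 and -85, and at -232 and -116. The single E-box of RAB25, an epithelial GTPase of recycling endosomes, starts at -41.

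Across the 11 lines, 10 had similar median levels of the group, and PEA1 had a much lower one. The median level of the 40 genes lay between 21.9 TPM in OVCAR4 and 44.8 TPM in OVCAR3 ResA, and was 1.44 TPM in PEA1. In such bulk libraries, fewer cells expressing a gene and less RNA per cell cannot be told apart. PEA1 was the lowest of the 11 lines for 35 of the 40 genes. Of the 40 genes, 14 had a mean under 1 TPM there, and 11 had a mean of at least 10 TPM. The separation was wider for the regulators, whose median was 0.00769 TPM in PEA1 and 9.45 to 24.6 TPM in the other lines. PEA1 nevertheless expressed PAX8 at 74.9 TPM ± 12.7 (SD, n = 3) and the simple epithelial keratins KRT8 and KRT18 at 128 ± 7.36 and 206 ± 27.5 TPM. The tubal and ovarian carcinoma markers WT1 and MUC16 were at 2.32 and 0.0696 TPM, and KRT7 was at 2.95 TPM.

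**Figure D1:**
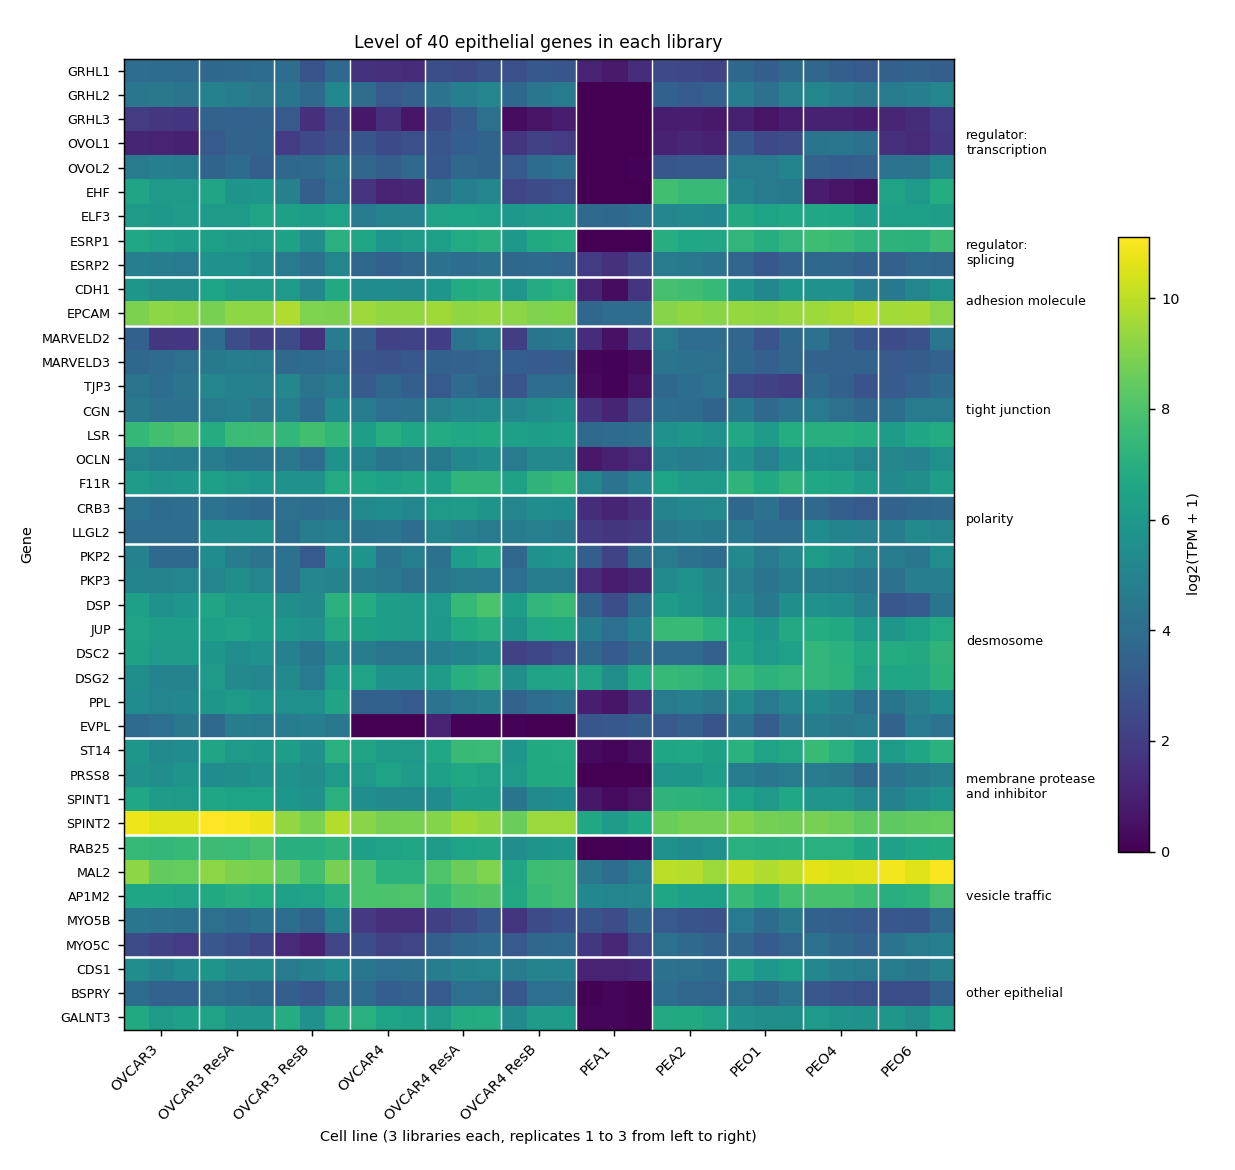
Level of each of the 40 genes as log2(TPM + 1) (colour) in each of the 33 libraries (columns, 3 per line), with the genes (rows) grouped by role. PEA1 is the darkest line for most genes, whereas EPCAM, SPINT2 and MAL2 are bright in the other 10 lines.

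Within the 10 lines other than PEA1, the ratio of the highest to the lowest line mean was under 5 for 25 of the 40 genes. It was lowest for EPCAM, an adhesion molecule of carcinoma cells (chr2:47369311-47387020), at 1.51, with line means from 530 to 800 TPM. CDH1 (chr16:68737292-68835537) lay between 34.1 TPM in PEO6 and 204 TPM in PEA2. The ratio was at least 10 for 8 genes. The largest measurable one was that of EHF, an ETS factor of epithelial differentiation (chr11:34621093-34663288), with means of 0.536 TPM in PEO4 and 194 TPM in PEA2. EVPL, a cornified envelope plakin, had no more than 3 counts in any OVCAR4 library. The median ratio was 4.66 for the regulators and 4.31 for the other genes.

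PEA2 against PEA1. The resistant line of this patient expressed nearly the whole epithelial group, and its sensitive counterpart held most of these genes at lower levels or near 0. In a DESeq2 Wald test with Benjamini-Hochberg adjustment over all genes (adjusted p under 0.05 is a call, here and throughout), 37 of the 40 genes were called, all higher in PEA2. Of all genes tested, 47% were called in either direction, 23.3% higher and 23.8% lower. For each of the 37 genes, the lowest PEA2 library lay above the highest PEA1 library in TPM, as it did for 25.8% of all genes tested. The median log2 fold change of the 40 genes was 4.46, and 4.14 with the 8 genes at the floor set to their bounds, against -0.02 over all genes tested.

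All 9 regulators were called higher. EHF was at 0 TPM in the 3 PEA1 libraries and at 213, 183 and 187 TPM in those of PEA2. It is therefore given as at least 6530-fold higher, a bound computed against a floor of 3 counts per library. ESRP1, which directs epithelial splice forms, stood at 0.0231, 0 and 0 TPM in PEA1 and at 120, 102 and 100.2 TPM in PEA2, at least 2390-fold higher. GRHL2, a Grainyhead-like activator of junction genes, stood at 0, 0.00986 and 0 TPM in PEA1 and at 10.1, 8.41 and 9.87 TPM in PEA2, at least 310-fold higher. OVOL2, OVOL1 and GRHL3, which were also at the floor in PEA1, were at least 46-fold, 20.4-fold and 12.9-fold higher. These 3 genes reached no more than 7.16 TPM in any PEA2 library.

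The remaining 3 regulators were detected in PEA1. ELF3, an ETS factor, stood at 13.3, 12.4 and 15.4 TPM in PEA1 and at 34.9, 39.4 and 35.8 TPM in PEA2, a log2 fold change of 1.54 ± 0.22 (SE, adjusted p = 6.63e-11). ESRP2 rose by 2.96 ± 0.26 and GRHL1 by 2.02 ± 0.34 on the log2 scale. PEA1 thus held GRHL1 and ESRP2 while their paralogues GRHL2 and ESRP1 were at the floor.

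Both adhesion molecules followed. CDH1 stood at 1.24, 0.290 and 2.26 TPM in PEA1 and at 228, 207 and 176 TPM in PEA2, a log2 fold change of 7.81 ± 0.38 (adjusted p = 6.43e-94). EPCAM stood at 12.6, 14.9 and 14.5 TPM in PEA1 and at 542, 614 and 569 TPM in PEA2, a log2 fold change of 5.48 ± 0.22. The PEA2 levels of EPCAM fell within the range of the other 9 lines.

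All 7 tight junction genes and both polarity genes were called higher. Log2 fold changes of the tight junction genes ran from 1.65 for F11R, an immunoglobulin-type adhesion molecule, to 7.17 for MARVELD3. TJP3, the scaffold ZO-3, stood at 0.219, 0.0726 and 0.452 TPM in PEA1 and at 12.3, 14.97 and 17.9 TPM in PEA2. The polarity genes CRB3 and LLGL2 rose by 4.26 and 3.25 on the log2 scale.

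The membrane protease group had the largest median log2 fold change of the non-regulator groups with more than 3 genes, 8.59. ST14, the protease matriptase, stood at 0.238, 0.111 and 0.358 TPM in PEA1 and at 94.1, 98.7 and 78.5 TPM in PEA2. PRSS8, the protease prostasin, was at the floor in PEA1 and at least 728-fold higher. The matriptase inhibitor SPINT1 rose by 8.39 on the log2 scale. Its relative SPINT2 rose by 2.37.

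Desmosome genes changed least, with a median log2 fold change of 1.94 and 6 of 8 called. PKP3 and PPL rose by 5.16 and 4.68, whereas DSG2, a desmosomal cadherin, stood at 88.1, 44.0 and 104 TPM in PEA1 and at 174, 164 and 142 TPM in PEA2. The 3 genes of the 40 that were not called were DSC2 (0.27, adjusted p = 0.391), EVPL (0.15, adjusted p = 0.642) and MYO5B (0.02, adjusted p = 0.96); their names were added after their values were seen. In these 3 genes the PEA1 and PEA2 libraries overlapped. DSC2, a desmosomal cadherin, stood at 11.97, 8.52 and 13.6 TPM in PEA1 and at 13.8, 13.9 and 9.56 TPM in PEA2.

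**Figure D2:**
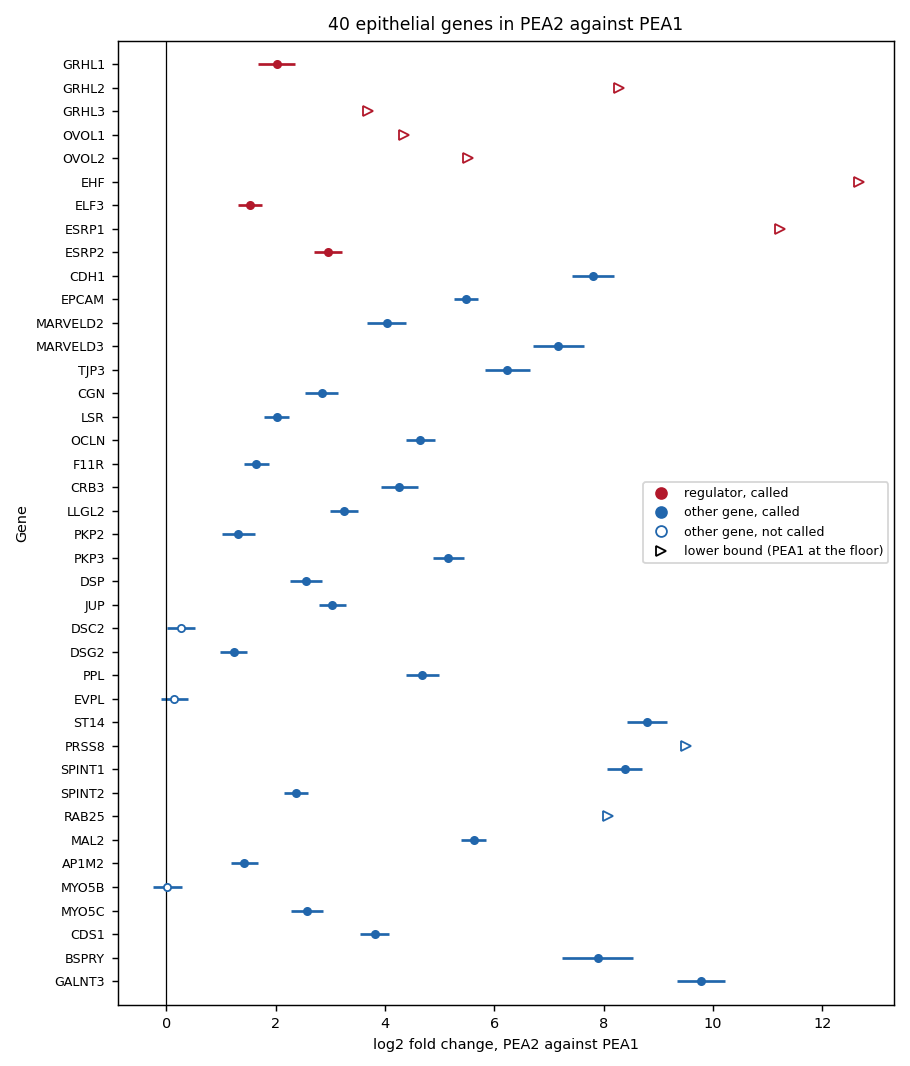
log2 fold change of each of the 40 genes in PEA2 against PEA1 (points, with bars of 1 SE, n = 3 libraries per line). Open triangles are lower bounds for the 8 genes at the floor in PEA1, and the open circles near 0 are DSC2, EVPL and MYO5B.

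Further gene lists were read in the same comparison. They were chosen with earlier results of these data known, so they are no independent support. Of all genes tested, 23.3% were called higher and 23.8% lower. Of 33 further epithelial genes (claudins, keratins, catenins and others), 32 could be tested, of which 19 were called higher and 4 lower in PEA2, with a median log2 fold change of 1.25. The highest were CLDN7 at 11.76, KRT19 at 10.61 and CLDN4 at 10.16; CDH3, which encodes P-cadherin and lies next to CDH1, rose by 7.37. The 4 called lower, named after their values were seen, were CGNL1, which encodes the cingulin relative paracingulin, at -6.83, CD24 at -1.74, NECTIN2 at -0.91 and TJP1, the scaffold ZO-1, at -0.90. Of 9 mesenchymal genes, 5 were called lower and 1 higher. The repressor ZEB1 was at 20.5 TPM ± 5.75 (SD, n = 3) in PEA1 and at 0.133 ± 0.0426 in PEA2, a log2 fold change of -7.13. ZEB2 was at 4.45 ± 0.794 in PEA1 and at 0.183 ± 0.0738 TPM in PEA2. In the other 9 lines the means of ZEB1 and ZEB2 were lower still. The filament gene VIM fell by 4.10 on the log2 scale, SNAI2 by 2.23 and TWIST1 by 4.45. FN1, which encodes fibronectin, went the other way, from 179 ± 67.5 TPM in PEA1 to 4425 ± 949.8 in PEA2. CDH2, which encodes N-cadherin, was not called, at 109.8 ± 31.2 and 76.0 ± 18.9 TPM.

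The genes around them were read in the same fit. For the 25 genes with a log2 fold change over 3 in PEA2, the nearest expressed gene on each side gave 50 neighbours. Among them MARVELD2 and OCLN, both of the 40 genes, neighbour each other. Of the other 48, with a median log2 fold change of 0.28, 13 were called higher and 10 lower, beside 23.3% and 23.8% of all genes tested. A rise of more than 3 was seen in 4 of them: CDH3, COLEC10 next to MAL2 (11.31), and SIGIRR and B4GALNT4 on either side of PKP3 (4.87 and 3.01). A fall of more than 3 was seen in 1, NCALD next to GRHL2 (-4.04). TANGO6, on the other side of CDH1 from CDH3, changed by 0.29 (adjusted p = 0.429). The neighbours of RAB25, LAMTOR2 and MEX3A, fell by 1.32 and 1.53. CAT and APIP, the neighbours of EHF at 149 kb and 219 kb, changed by -0.52 and 0.39 (adjusted p = 0.0787 and 0.2).

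The size of this change was set beside the promoter motifs. The 13 genes with an E-box had a median log2 fold change of 2.57, from 0.02 to 11.15, with 11 called higher. The 9 genes without one had a median of 4.03, from 2.02 to 16.71, with 9 called higher. Genes without a promoter in the table enter neither group. Of the regulators these were GRHL2, OVOL1, OVOL2, ESRP1 and ESRP2. Of the other genes they included CDH1, EPCAM, ST14, PRSS8, EVPL and PKP2. MYO5B, with 3 E-boxes, was not called. EHF, with none in a window that lies inside the gene, changed most. These are descriptions of fitted values, of which those of genes at the floor depend on the fit.

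The other isogenic pairs gave a different picture. Over the 7 pairs of a resistant line with its sensitive counterpart, 106 of 280 combinations of gene and pair were called, of which 69 fell outside the PEA pair. In those 6 pairs 28.9% of the 239 tests of these genes were called, near the 26.9% of all tests over all genes. No gene was called in the same direction in at least 5 of the 7 pairs, and for 19 of the 40 the calls of different pairs went in opposite directions. Pairs within a family share the libraries of their sensitive line. Increases were called for GRHL3, TJP3, LLGL2 and MYO5C in 4 pairs each, with no decrease. Some of these calls were fragile. Those of MYO5C in OVCAR3 ResA and GRHL3 in PEO6 were lost when any 1 replicate was left out. Those of both genes in OVCAR4 ResA were lost in edgeR. TJP3 in OVCAR3 ResA and PEO6, and LLGL2 in PEO6, were each lost in at least 1 alternative. MYO5B fell in 3 pairs and rose in none, but its OVCAR3 ResA call was lost without replicate 1 or 2. Recurrence over all genes was not tested, so these counts describe the 40 genes only. Calls of 6 genes (GRHL2, CGN, CRB3, PKP3, JUP and PRSS8) came from PEA2 alone.

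At the level of lines, no difference between the 7 resistant and 4 sensitive lines was detectable for this group. With counts summed over each line's libraries and the family of lines as a covariate, DESeq2 called 0 of the 40 genes, against 0.286% of all genes tested. Without adjustment, 3 genes had p under 0.05 in DESeq2 and 1 in edgeR, which also called 0. The lowest p was that of LLGL2, a polarity protein, with a log2 fold change of 1.11 (adjusted p = 0.563).

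**Figure D3:**
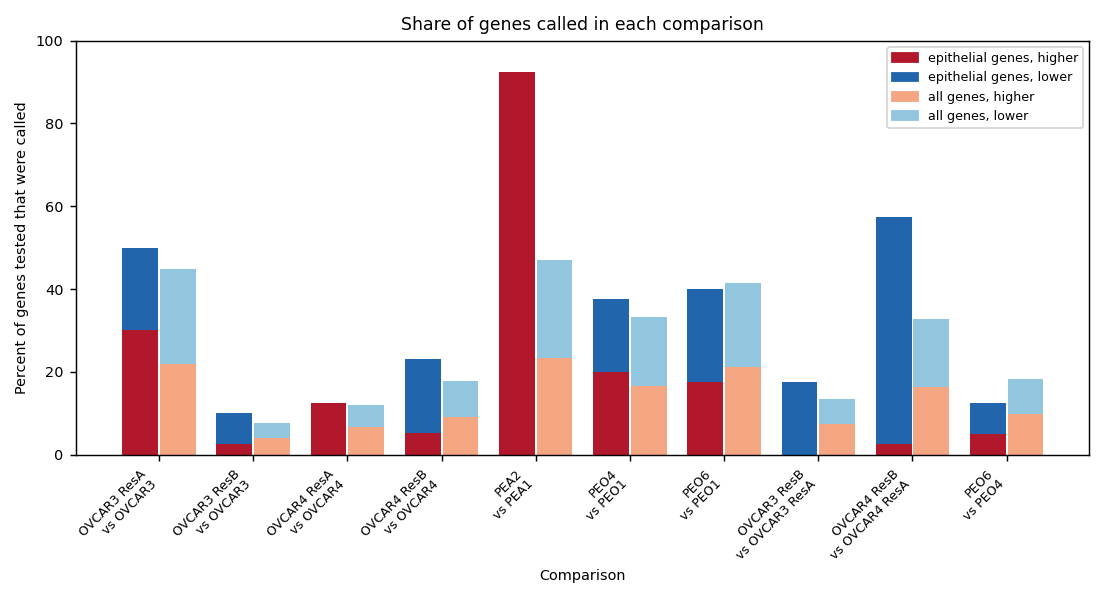
Percent of genes called higher (red) and lower (blue) in each comparison, for the 40 epithelial genes (dark, left bars) and for all genes tested (pale, right bars). PEA2 against PEA1 and OVCAR4 ResB against OVCAR4 ResA stand above their background, with calls almost entirely in 1 direction.

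OVCAR3 ResA against OVCAR3. Of the 40 genes, 20 were called, 12 higher and 8 lower, beside 44.9% of all genes tested (22% higher, 22.9% lower), and the median log2 fold change was 0.14. Libraries of these lines deviated together by replicate number, and without the replicate term 11 were called, beside 30.1% of all genes. OVOL1, a repressor of mesenchymal fate (chr11:65787063-65797214), stood at 1.21, 1.07 and 0.947 TPM in OVCAR3 and at 7.97, 10.6 and 10.9 TPM in ResA. This was a log2 fold change of 3.07 ± 0.24 (adjusted p = 5.6e-36). GRHL3 (chr1:24319357-24364482) went from 2.93, 2.36 and 2.14 TPM to 10.5, 10.1 and 10.8 TPM, a change of 1.96 ± 0.20. OVOL2 moved the other way, from 23.1, 26.6 and 25.1 TPM to 11.03, 13.8 and 9.41 TPM (-1.22 ± 0.19, adjusted p = 7.66e-10).

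In the same pair the splicing factors also split, with ESRP2 higher by 0.73 ± 0.11 and ESRP1 lower by 0.42 on the log2 scale. LLGL2 stood at 14.7, 14.6 and 15.2 TPM in OVCAR3 and at 42.97, 42.4 and 45.7 TPM in ResA. CDH1 rose by 0.40 ± 0.10 (adjusted p = 0.000292), a call lost without the replicate term (0.0768) and in the fit of all 33 libraries (0.46). Among the genes called lower, OCLN (occludin), DSC2 and the glycosyltransferase GALNT3 fell by 0.63, 0.61 and 0.53. EHF was called lower by 0.25 (adjusted p = 0.0425), but the groups overlapped and the call was lost without the replicate term (adjusted p = 0.508).

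OVCAR3 ResB against OVCAR3. Only 4 genes were called, 1 higher and 3 lower, beside 7.67% of all genes tested (4.1% higher, 3.57% lower). EHF stood at 87.7, 62.0 and 61.1 TPM in OVCAR3 and at 27.8, 9.41 and 15.9 TPM in ResB, a log2 fold change of -2.22 ± 0.35 (adjusted p = 2.3e-08). SPINT2, a serine protease inhibitor, went from 1809, 1504 and 1510 TPM to 638, 465 and 920 TPM (-1.40 ± 0.30, adjusted p = 0.000152). DSC2 fell by 1.44 ± 0.31. OVOL1 rose by 1.99 ± 0.47, with ResB libraries at 2.98, 4.41 and 6.18 TPM.

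ResB replicate 3 stood apart on several junction genes and in mitochondrial rRNA, which took 1.12% of its counts and 5.97% and 8.88% of those of replicates 1 and 2; the part of this difference in the results was not tested. It held CDH1 at 106 TPM, DSP at 137 TPM and F11R at 111 TPM, where the other ResB libraries had at most 61.7, 44.4 and 51.3 TPM. Without replicate 3, 6 genes were called beside 12.5% of all genes. Without replicate 2, a single gene was called, EHF, beside 3.02% of all genes, and the adjusted p was 0.138 for SPINT2, 0.114 for DSC2 and 0.197 for OVOL1.

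The independent resistant lines of OVCAR3 differed from each other in 7 genes, all lower in ResB than in ResA, beside 13.5% of all genes tested (7.47% higher, 6.04% lower). EHF differed by -1.97 ± 0.33 (adjusted p = 1.64e-07) and SPINT2 by -1.60 ± 0.32 (adjusted p = 1.35e-05). MYO5C, an epithelial myosin of secretory traffic, stood at 7.07, 6.00 and 4.20 TPM in ResA and at 1.53, 1.05 and 3.94 TPM in ResB. GRHL3 differed by -1.31 ± 0.43 (adjusted p = 0.0199), a call lost in edgeR (0.0875), in the limma fits and without replicate 2 (0.619). The MYO5C call was lost in the limma fits and without replicate 1 or 2 (adjusted p = 0.167 and 0.287). The count was 3, 2 and 13 without replicate 1, 2 and 3, respectively, beside 6.5%, 5.15% and 23.5% of all genes.

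OVCAR4 ResA against OVCAR4. Calls were 5, all higher, beside 11.9% of all genes tested (6.68% higher, 5.22% lower). EHF stood at 2.20, 1.12 and 1.29 TPM in OVCAR4 and at 17.3, 27.0 and 32.3 TPM in ResA, a log2 fold change of 3.55 ± 0.36 (adjusted p = 1.4e-20). ELF3 went from 23.5, 30.5 and 29.2 TPM to 84.3, 86.0 and 80.6 TPM (1.07 ± 0.35, adjusted p = 0.026), and MYO5C changed by 0.99 ± 0.31 (adjusted p = 0.0183). Both calls were lost in edgeR (adjusted p = 0.149 and 0.0986), without replicate 2 (0.236 and 0.556), without replicate 3 (0.361 and 0.767) and in the limma fits, and the ELF3 change was 1.57 on the log2(TPM + 1) scale. GRHL3 stood at 0.640, 1.80 and 0.603 TPM in OVCAR4 and at 4.73, 8.501 and 16.1 TPM in ResA (2.75 ± 0.52, adjusted p = 8.5e-06, but 0.077 in edgeR and 0.0925 without replicate 3). EVPL, at the floor in OVCAR4, was called as at least 12.3-fold higher; 1 library decides this value, since ResA stood at 1.16, 0.0768 and 0.0839 TPM, and without that library (replicate 1) it could not be tested.

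OVCAR4 ResB against OVCAR4. Calls were 9, with 2 higher and 7 lower, beside 17.9% of all genes tested (9.09% higher, 8.77% lower), and EVPL could not be tested. The largest was DSC2 (chr18:31058840-31102421), at 24.5, 19.5 and 19.4 TPM in OVCAR4 and at 3.44, 4.39 and 5.497 TPM in ResB, a log2 fold change of -2.83 ± 0.31 (adjusted p = 8.77e-18). GALNT3, RAB25 and OVOL1 fell by 1.42, 1.32 and 1.44. EPCAM was called lower by 0.90 ± 0.34 (adjusted p = 0.0459), a call lost in edgeR (adjusted p = 0.124), in the limma fits and without replicate 2 or 3 (adjusted p = 0.596 and 0.656). The genes called higher were GRHL1 at 1.27 ± 0.36 and EHF at 1.14 ± 0.36 (adjusted p = 0.0133). EHF stood at 4.01, 4.90 and 5.60 TPM in ResB. Without replicate 2 or without replicate 3, DSC2 alone was called, beside 5.03% and 4.26% of all genes.

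The OVCAR4 pairs were sensitive to a single library number and to scaling. Replicate 1 of both resistant lines was lower for several junction genes: CDH1 stood at 56.0, 112 and 128 TPM in ResA and at 54.0, 113 and 134 TPM in ResB, against 39.8, 39.6 and 39.5 TPM in OVCAR4. Without replicate 1, 20 genes were called in each pair, 15 higher and 5 lower in ResA and 10 higher and 10 lower in ResB, beside 40.8% and 46.1% of all genes. On the TPM scale the median log2 change was 0.44 for ResA and 0.47 for ResB, over the 12869 and 12947 genes with at least 1 TPM in 3 libraries. In the count fit, over all genes tested, it was near 0. Mitochondrial rRNA took 9.23% and 13.1% of counts in replicate 1 of ResA and ResB and 2.02% to 2.47% in their replicates 2 and 3, whereas in OVCAR4 it took 5.18% in replicate 1 and 14.8% and 11.96% in replicates 2 and 3. Its part in these results was not tested.

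Between the resistant lines of OVCAR4, 23 of the 40 genes were called, 22 of them lower in ResB than in ResA, beside 32.8% of all genes tested (16.2% higher, 16.5% lower). The median log2 fold change was -0.34, against 0 over all genes. These libraries deviated together by replicate number, and without the replicate term 11 were called, all lower, beside 12.9% of all genes. Without that term the counts against OVCAR4 were 12 for ResA and 13 for ResB, beside 21.5% and 28.5%. Without replicate 1, 2 or 3, the count between the resistant lines was 22, 15 or 19, beside 28.7%, 12.5% and 19.7% of all genes.

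Of the regulators, 7 of 9 were called lower in ResB. GRHL3 differed by -4.17 ± 0.29 (adjusted p = 5.85e-45), with ResB at 0.299, 0.512 and 0.873 TPM. EHF differed by -2.41 ± 0.16 (adjusted p = 4.39e-49), although both lines had more of it than OVCAR4. OVOL1 differed by -1.63 ± 0.22, with ResA at 6.97, 8.90 and 11.04 TPM and ResB at 2.32, 3.41 and 2.97 TPM. GRHL2 differed by -0.53, ESRP2 by -0.46, ELF3 by -0.36 and ESRP1 by -0.23. Without the replicate term these calls were lost (adjusted p = 0.119, 0.376, 0.314 and 0.678, respectively). The ESRP1 call was also lost in edgeR (adjusted p = 0.0603) and without any 1 replicate.

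Of the other genes, 15 of 31 were called lower, and 6 of the 8 desmosome genes were among them. Without the replicate term the calls of PKP2, JUP, DSG2 and EVPL were lost (adjusted p from 0.0639 to 0.755). DSC2 stood at 25.7, 31.4 and 38.4 TPM in ResA, above every ResB library, and differed by -2.91 ± 0.12 (adjusted p = 6.46e-132). MAL2, a protein of apical transport, SPINT1 and ST14 differed by -1.27, -0.98 and -0.82. EPCAM differed by -0.39, a call lost without the replicate term (adjusted p = 0.582), and CDH1 by -0.02, which was not called. The single gene called higher in ResB was CGN, the tight junction scaffold cingulin, by 0.35 ± 0.09 (adjusted p = 0.000942, but 0.0653 without the replicate term). The EVPL call among these rests again on ResA replicate 1.

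PEO4 and PEO6 against PEO1. In PEO4, 15 genes were called, 8 higher and 7 lower, beside 33.3% of all genes tested (16.6% higher, 16.7% lower). In PEO6, 16 were called, 7 higher and 9 lower, beside 41.4% (21.2% higher, 20.3% lower). Both shares were near their background, and both comparisons use the same PEO1 libraries, so their values are set side by side without a test of likeness. CDS1, a lipid synthesis enzyme, stood at 89.5, 60.7 and 77.8 TPM in PEO1, at 35.1, 27.0 and 23.5 TPM in PEO4 and at 22.6, 19.7 and 27.6 TPM in PEO6. Its log2 fold changes were -1.37 ± 0.16 and -1.72 ± 0.21. BSPRY was lower by 1.27 in each line.

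TJP3 was higher in both resistant lines. It stood at 4.45, 3.59 and 3.10 TPM in PEO1, at 13.4, 10.0 and 6.25 TPM in PEO4 and at 8.05, 10.3 and 14.4 TPM in PEO6, with log2 fold changes of 1.36 ± 0.23 and 1.48 ± 0.30. LLGL2 rose by 0.97 and 0.95, and DSC2 by 0.83 and 0.64. MYO5C rose by 1.08 in PEO6 (adjusted p = 5.96e-06) and was not called in PEO4. F11R fell by 0.61 in PEO4 and by 1.44 in PEO6. Some of these calls were lost in alternatives. In PEO6, DSC2 was lost without replicate 2 or 3 (adjusted p = 0.0827 and 0.115), and LLGL2 without replicate 2 (0.0604). In PEO4, F11R was lost without replicate 1 (adjusted p = 0.0845) and in the limma fits without the TPM filter. Both DSC2 calls were lost in limma on log2(TPM + 1).

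Of the 40 genes, the regulators EHF and OVOL1 differed most between these 2 resistant lines. EHF stood at 30.7, 23.9 and 21.8 TPM in PEO1, at 0.801, 0.494 and 0.314 TPM in PEO4 and at 85.0, 61.1 and 118 TPM in PEO6. Its log2 fold change was -5.59 ± 0.23 in PEO4 (adjusted p = 2.4e-123) and 1.72 ± 0.26 in PEO6 (adjusted p = 3.63e-10). OVOL1 went the opposite way: it stood at 7.33, 4.44 and 5.15 TPM in PEO1, at 19.2, 19.7 and 16.7 TPM in PEO4 and at 1.80, 1.49 and 2.35 TPM in PEO6. Its log2 fold changes were 1.73 ± 0.21 (adjusted p = 1.83e-15) and -1.61 ± 0.32 (adjusted p = 5.16e-06). In both genes the 3 lines had no overlapping libraries.

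The neighbours of EHF did not share its fall in PEO4. CAT changed by -0.36 (adjusted p = 0.13) and APIP rose by 0.60 (adjusted p = 0.00906). In OVCAR4 ResA, where EHF rose, CAT rose by 1.11 (adjusted p = 0.0383) and APIP changed by -0.06.

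PEO6 differed from PEO4 in 5 genes, 2 higher and 3 lower, beside 18.2% of all genes tested (9.86% higher, 8.33% lower). Besides EHF (7.30 ± 0.36, adjusted p = 5.59e-90) and OVOL1 (-3.35 ± 0.33, adjusted p = 8.62e-22), these were OVOL2, higher by 1.17 ± 0.35, F11R, lower by 0.83, and DSP. Against PEO1, OVOL2 was lower in PEO4 by 1.34 (adjusted p = 1.12e-07) and was not called in PEO6. Its line means were 25.9 TPM in PEO1, 9.66 TPM in PEO4 and 23.1 TPM in PEO6. DSP, the desmosome linker desmoplakin, stood at 35.8, 21.7 and 45.5 TPM in PEO1 and at 47.0, 42.1 and 28.8 TPM in PEO4, but at 7.21, 8.24 and 18.8 TPM in PEO6. The difference between PEO6 and PEO4 was -1.98 ± 0.37 (adjusted p = 1.95e-06), a call lost in the limma fits without the TPM filter. The OVOL2 call between these lines was lost in the limma fits and without replicate 1 or 2 (adjusted p = 0.111 and 0.208). That of F11R was lost in edgeR (adjusted p = 0.12), in the limma fits and without replicate 1 or 2 (0.453 and 0.627). GRHL1, GRHL2, ELF3, ESRP1 and ESRP2 were called in none of the 3 comparisons of this family. GRHL3 was called in PEO6 (1.32 ± 0.48, adjusted p = 0.0175), a call that was lost without any 1 of the 3 replicates (adjusted p from 0.057 to 0.281).

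**Figure D4:**
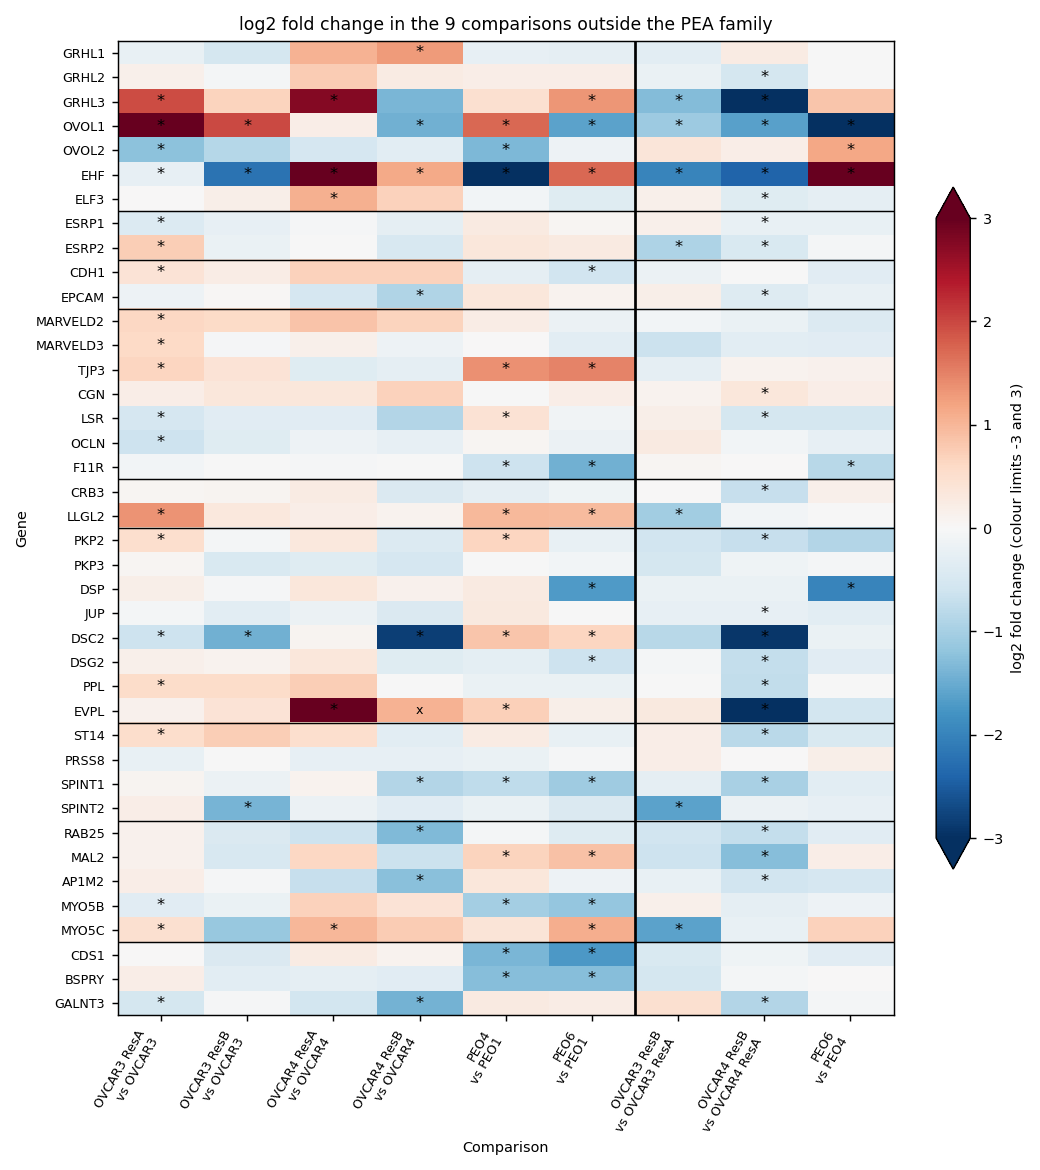
log2 fold change (colour, limited to -3 and 3) of the 40 genes (rows) in the 9 comparisons outside the PEA family (columns), with asterisks on calls and x where DESeq2 gave no adjusted p; the thick line separates the 6 resistant-sensitive pairs from the 3 comparisons between resistant lines. The strongest colours fall on EHF, OVOL1, GRHL3 and DSC2, in both directions.

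EHF was called in all 7 pairs, higher in 4 and lower in 3. Ordered by mean level, PEA2 (194 TPM) was highest, followed by PEO6 (87.9), OVCAR3 (70.2), OVCAR3 ResA (66.0), OVCAR4 ResA (25.5), PEO1 (25.5), OVCAR3 ResB (17.7), OVCAR4 ResB (4.84), OVCAR4 (1.54), PEO4 (0.536) and PEA1 (0). Libraries overlapped among PEO6, OVCAR3 and OVCAR3 ResA, and among OVCAR4 ResA, PEO1 and OVCAR3 ResB. The EHF calls in PEA2, PEO4 and PEO6 held under every alternative fit. That in OVCAR3 ResA was lost without the replicate term and without any 1 replicate. That in OVCAR4 ResB was lost in edgeR (adjusted p = 0.0574), in the limma fits and without replicate 2 or 3 (0.396 and 0.559). Those in OVCAR3 ResB and OVCAR4 ResA were lost in the limma fits without the TPM filter. OVOL1 was called in 6 pairs, higher in 4 and lower in 2, and exceeded 7 TPM in every library of OVCAR3 ResA and PEO4 only. Its calls in OVCAR3 ResB and OVCAR4 ResB were lost in the limma fits and without replicate 2 (adjusted p = 0.197 and 0.134).

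Outside PEA2, the adhesion molecule CDH1 was called in 2 of 6 pairs, OVCAR3 ResA and PEO6; in PEO6 it was lower by 0.58 ± 0.24 (adjusted p = 0.0449), with overlapping groups, and the call was lost in edgeR (adjusted p = 0.0745), without the replicate term, in the fit of all 33 libraries, in the limma fits and without any 1 replicate (-0.31 without replicate 1). Of these 6 pairs, EPCAM was called in OVCAR4 ResB. Its lowest and highest libraries in the 10 lines were at 454 and 906 TPM.

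**Figure D5:**
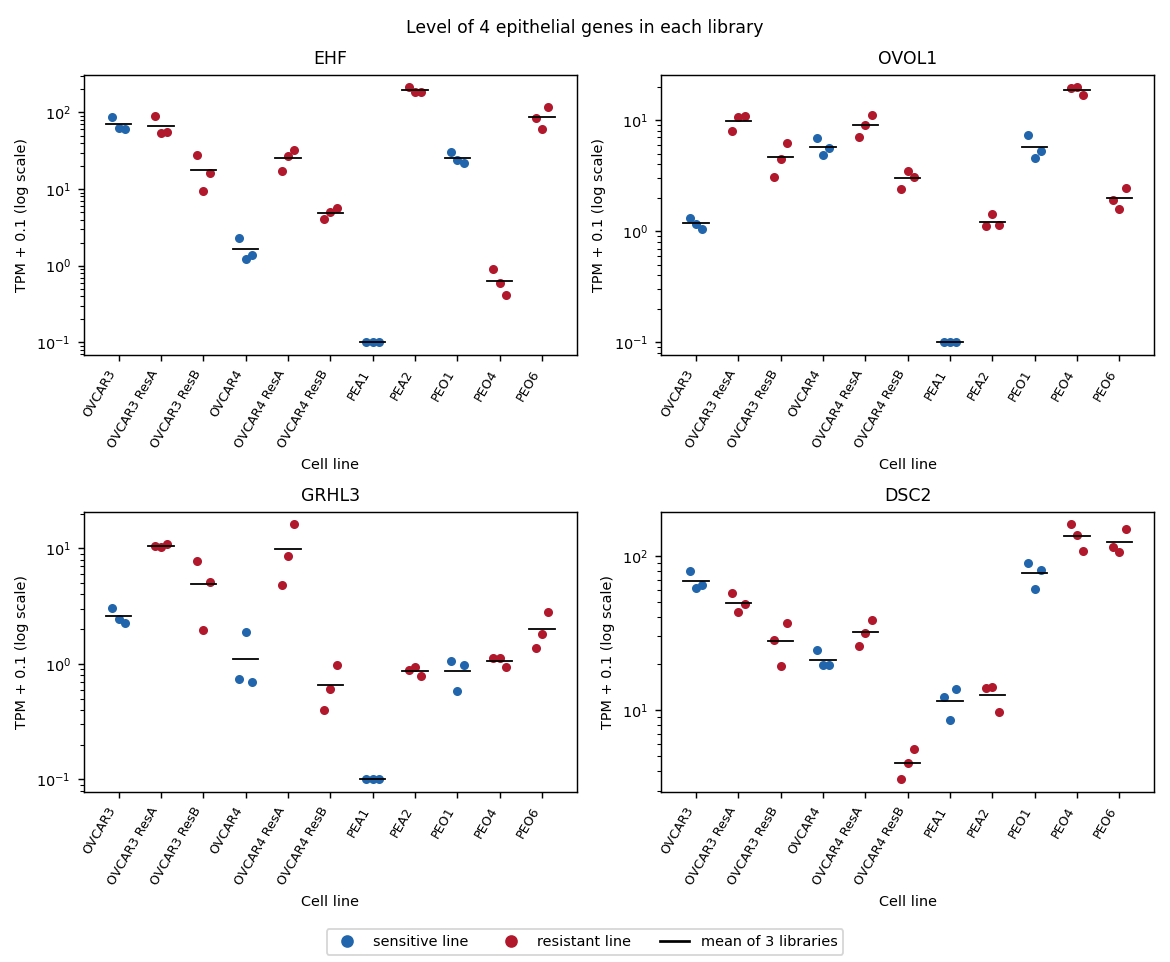
Level of EHF, OVOL1, GRHL3 and DSC2 in each library as TPM + 0.1 on a log axis (points), for sensitive (blue) and resistant (red) lines, with the mean of 3 libraries as a bar. PEA1 is at 0 TPM for EHF, OVOL1 and GRHL3, and PEO4 and PEO6 lie on opposite sides of PEO1 for EHF and OVOL1.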

How the data were processed

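mRNA libraries of 11 lines (3 per line) were sequenced by the authors on a single instrument and quantified with salmon, run within nf-core/rnaseq on GRCh38. The annotation release and the strand setting are not given in the sources used here, so overlapping and antisense genes are uncertain. The expected counts deposited by the authors are salmon estimates per gene, not normalised, and were rounded to whole numbers. The TPM values deposited by the authors divide each estimate by gene length and scale every library to the same sum, so they carry no depth. Groups and replicate numbers came from the sample titles. The same 6 libraries of a pair or of 2 resistant lines were fitted together in DESeq2 1.42.0 (R 4.3.3), with the replicate number as a block as in the study's methods, without a filter, over all 29744 genes. Genes with a Benjamini-Hochberg adjusted p under 0.05 were called, and where DESeq2 gave none a gene counted as not tested. Because the study stated DESeq2, edgeR 4.0.16 (quasi-likelihood) was an alternative, as were limma 3.58.1 on log2(TPM + 1) and log2(TPM + 0.1), other scalings, a filter of 10 counts in 3 libraries, a fit of all 33 libraries, and leaving out each replicate. The line-level test used counts summed over each line, with family as a covariate. Tests were tried on simulated data first.

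Same-numbered libraries deviated from their line means together (all 3 correlations above 0.1) in OVCAR3 ResA with OVCAR3 (0.298 to 0.732) and in OVCAR4 ResB with OVCAR4 ResA (0.492 to 0.641), and not in the other 8 comparisons. Where all 3 libraries of a line had 3 counts or fewer, the fold is a bound against that floor of 3 counts per library, divided by each size factor; it covers counting error only. Positions and promoters are RefSeq GRCh38.p14, matched by symbol for 40 and 22 genes. The genome at hand was of another build and was not used. The member genes and the other lists were chosen with earlier results of these data known. The text names the 9 regulators, CDH1 and EPCAM in each line, and, per comparison, up to 4 called genes with the largest increase and up to 4 with the largest decrease among those averaging 50 or more normalised counts and moving alike in the 3 same-numbered pairs; any gene called in the same direction in at least 5 of 7 pairs was to be named as well. Other genes named from a role group were added to illustrate its range after their values were seen.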

Additional observations from a re-analysis of the deposited data

Results flagged for a closer look

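The effects on 2 regulators went in opposite directions in the resistant lines PEO4 and PEO6, which share the sensitive line PEO1, and the direct DESeq2 comparison of PEO6 with PEO4 called both differences. EHF was 7.30 higher in PEO6 than in PEO4 on the log2 scale (adjusted p = 5.59e-90), lower than PEO1 in all 3 PEO4 libraries and higher in all 3 PEO6 libraries. OVOL1 differed by -3.35 (adjusted p = 8.62e-22), with all 3 PEO4 libraries above and all 3 PEO6 libraries below those of PEO1. Groups of 3 libraries are too small for a test of single outlying libraries.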

How the results depend on the processing

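Of 141 calls of a gene in a comparison, 75 kept their direction and call under every alternative that gave a value: 35 in PEA2 against PEA1, 10 in PEO6 and 9 in PEO4 against PEO1, 9 in OVCAR3 ResA against OVCAR3, 10 between the resistant OVCAR4 lines, 2 between PEO6 and PEO4, and none elsewhere. Over single genes and alternatives, 256 calls were lost and 107 gained. The only reversal was PKP2 in OVCAR4 ResB, from -0.97 to 0.42 as each replicate was left out and called at 0.42 without replicate 1. Counts of called genes in PEA2 stayed within 1.5 times of 37. Without the replicate block the count was 11 for OVCAR3 ResA (20 with it), 12 for OVCAR4 ResA (5 with it; its numbers do not pair the samples) and 11 for OVCAR4 ResB against ResA (23 with it), and no other count moved by over 1.5 times. With edgeR it was 1 for OVCAR4 ResA and 3 for OVCAR3 ResB against ResA. With all 33 libraries in one fit it was 10 for OVCAR3 ResA, 12 for OVCAR3 ResB, 13 for OVCAR4 ResA, 17 for OVCAR4 ResB and 13 for OVCAR3 ResB against ResA. With limma on log2(TPM + 1) it was 0 for OVCAR3 ResB, OVCAR4 ResA, OVCAR4 ResB and OVCAR3 ResB against ResA (5, 12, 8 and 7 genes had unadjusted p under 0.05), 9 for PEO4, 10 for PEO6 and 2 for PEO6 against PEO4. With log2(TPM + 0.1) it was 0 for OVCAR3 ResB, OVCAR4 ResA and OVCAR4 ResB (4, 13 and 8 unadjusted), 1 for OVCAR3 ResB against ResA and 2 for PEO6 against PEO4. With the TPM filter it was 2, 1 and 1 for the first 3 of these, 2 for OVCAR3 ResB against ResA and 3 for PEO6 against PEO4. Leaving out each replicate in turn gave 1 to 6 calls for OVCAR3 ResB, 1 to 20 for OVCAR4 ResA, 1 to 20 for OVCAR4 ResB, 11 to 23 for PEO4, 11 to 13 for PEO6, 2 to 13 for OVCAR3 ResB against ResA, 15 to 22 for OVCAR4 ResB against ResA and 3 to 13 for PEO6 against PEO4. At the level of lines the count was 0 throughout. The cause of these shifts was not tested, beyond the fewer libraries or genes that some alternatives use. Genes at 3 counts or fewer in PEA1 give bounds only, so depth limits the size of those changes.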
